A study of Mus musculus with 8 samples.

Results

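The neuropeptides PACAP and VIP and their 3 receptors were examined in brain tissue of adult female mice. The tissue was described as striatum, though its label also names prefrontal cortex. The mice were wildtype or carried 1 gene-trapped copy of Brd2. The members were all non-control probes whose gene name in the array files was Adcyap1, Vip, Adcyap1r1, Vipr1 or Vipr2, which gave 5 of the 30175 distinct gene names and 8 of the 39429 probes of the array. Adcyap1, Vip and Adcyap1r1 had 1 probe each, Vipr1 had 2 and Vipr2 had 3, and every probe was a single spot. The genes were chosen with an earlier comparison of the genotypes in view, in which Adcyap1 and Vip measured higher in heterozygous samples. Their differences between genotypes are therefore given as a description, without a test of their own.

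Adcyap1 encodes the precursor of PACAP, and Vip that of vasoactive intestinal peptide, a close relative of PACAP in the secretin peptide family. PACAP binds the receptor PAC1, product of Adcyap1r1, and shares with VIP the receptors VPAC1 and VPAC2, products of Vipr1 and Vipr2. All of these receptors couple to the stimulatory G protein and raise cAMP. In the forebrain VIP marks a class of GABAergic interneurons of the cortex, and PACAP is made by many glutamatergic neurons, whereas the main neurons of the striatum are GABAergic projection neurons.

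There were 4 wildtype samples and 4 samples heterozygous for the Brd2 gene-trap insertion, all from adult C57Bl/6j females of backcross generation 7, with no treatment named. Brd2 is a chromatin reader of the BET family. The insertion was carried in the germ line, so the model is not limited to any cell type. The tissue label names prefrontal cortex as well as striatum, and the sources used here do not say whether a sample was 1 animal, so a p-value here reflects the variation among these RNA samples and may not reflect that among animals. Replicates 1 and 3 of each genotype were labelled with the dye Cy3 and replicates 2 and 4 with Cy5, and replicates 1 and 2, and 3 and 4, of a genotype shared an array. Each of the 4 arrays thus held 1 genotype, and an effect of a single array cannot be fully told apart from genotype.

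Cy3 was the less sensitive channel. Between 37.7% and 47.6% of the 43020 spots were well above background there by the scanner's own call, against 65.9% to 75.5% in Cy5, and negative control spots had a median brightness of 244 to 261 in Cy3 and 63.3 to 66.6 in Cy5. The bright Brd2 probe measured 12.64 to 13.10 on the log2 scale in wildtype samples and 11.70 to 11.92 in heterozygous replicates 1, 2 and 4. The library labelled heterozygous replicate 3 measured 12.57, just below the lowest wildtype value, and its label is in doubt. A dim Brd2 probe did not measure lower in heterozygous samples, at 8.05 to 8.62 against 7.66 to 8.18 in wildtype samples. The doubt thus rests on the bright probe alone. That library is kept below, and the values without it are given beside those of each peptide gene. All 14 listed markers of striatal projection neurons were tested, and Penk and Ppp1r1b, for example, were well above background in all 8 samples. With 4 samples a genotype, precision is limited by the number of arrays.

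The first 30 bases of the 60-base probes that the results turn on are shown because every level below is the brightness of one such oligonucleotide. The coordinates are those of the array files (mm9), and the Vip probe is listed there in descending order. The letters are in lower case throughout, since no part of a probe is set apart from the rest.
Adcyap1, A_52_P425667, chr17:93604401-93604460: gttccactgcctgacagatcaggtgctggt
Vip, A_51_P368313, chr10:4699238-4699297: ggataaaagagatatgtggcaaaaggattt
Adcyap1r1, A_51_P259603, chr6:55450829-55450888: caagctctgaaaacaacaccgctgtgtgct
Vipr2, A_55_P2033676, chr12:117333207-117333266: aaactgcactagcgatggatggtcagagac
By the positions given in the files, the Adcyap1 probe starts at base 1663 of its transcript and the Vip probe at base 1156. The Vipr2 probe starts at base 389 and lies nearest the transcript's start, while the other Vipr2 probes start at bases 1549 and 3105. GC content was 45% in the Adcyap1, Adcyap1r1 and printed Vipr2 probes and 35% in the Vip probe.

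The transcripts of both peptides measured higher in heterozygous than in wildtype samples. For Adcyap1 the heterozygous mean was 1.80-fold the wildtype mean, and for Vip it was 1.95-fold. Both folds average 4 samples a genotype, of which 2 wildtype and 3 heterozygous samples were well above background for these probes. In Cy5, where every sample was, the log2 differences were 0.64 (SE 0.227) and 0.99 (SE 0.384), from 2 samples a genotype. Among the receptor genes, heterozygous values of Adcyap1r1 lay on both sides of the wildtype ones, and Vipr1 had small negative differences. Vipr2 was at or near background in all but 1 array.

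Adcyap1 was dim in Cy3. Its spot had a brightness of 302 and 269 in wildtype replicates 1 and 3, near the negative controls, and of 463 and 333 in heterozygous replicates 1 and 3. In Cy5 it had a brightness of 347 and 317 in wildtype replicates 2 and 4, and of 820.5 and 1183 in heterozygous replicates 2 and 4. Brightness is given before normalization, here and for Vip. The median spot in Cy5 had 212 and 235 in these wildtype samples and 359 and 321 in these heterozygous samples. It was well above background in all 4 Cy5 samples and, in Cy3, in heterozygous replicate 1 alone.

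After normalization Adcyap1 measured 7.96, 8.67, 7.46 and 8.46 on the log2 scale in wildtype replicates 1 to 4. It measured 8.64, 8.91, 8.89 and 9.50 in heterozygous replicates 1 to 4. In Cy5 both heterozygous samples lay above both wildtype samples, and the highest value of all belonged to heterozygous replicate 4. In Cy3 heterozygous replicate 1 was the only sample well above background, and the order of the other values has no firm meaning. With the dye effect removed, the wildtype mean was 8.13 ± 0.25 and the heterozygous mean 8.98 ± 0.29 (SD, n = 4 each), a log2 difference of 0.85 (SE 0.186). The Cy5 difference was 0.64. The Cy3 values differed by 1.06, but neither wildtype sample was well above background there, so this is not a difference of measured levels.

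Vip showed the same order of groups in Cy5 with a wider spread among wildtype samples. Its spot had a brightness of 271 and 262 in wildtype replicates 1 and 3 and of 446 and 277 in heterozygous replicates 1 and 3, all in Cy3. In Cy5 the brightness was 508 and 230.1 in wildtype replicates 2 and 4 against 1730 and 1075 in heterozygous replicates 2 and 4. As for Adcyap1, all 4 Cy5 samples and heterozygous replicate 1 alone among the Cy3 samples were well above background.

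On the normalized log2 scale Vip measured 7.79, 9.20, 7.34 and 8.09 in wildtype replicates 1 to 4. It measured 8.61, 9.85, 8.38 and 9.42 in heterozygous replicates 1 to 4. In Cy5 the genotypes did not overlap, although wildtype replicate 2 stood closer to both heterozygous samples than to wildtype replicate 4. In Cy3 heterozygous replicate 3 and both wildtype samples were not well above background, and their order has no firm meaning. With the dye effect removed, the wildtype mean was 8.10 ± 0.49 and the heterozygous mean 9.07 ± 0.20 (SD, n = 4 each), a log2 difference of 0.96 (SE 0.246). The Cy5 difference was 0.99. The Cy3 values differed by 0.93, with the same limit as for Adcyap1.

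**Figure D1:**
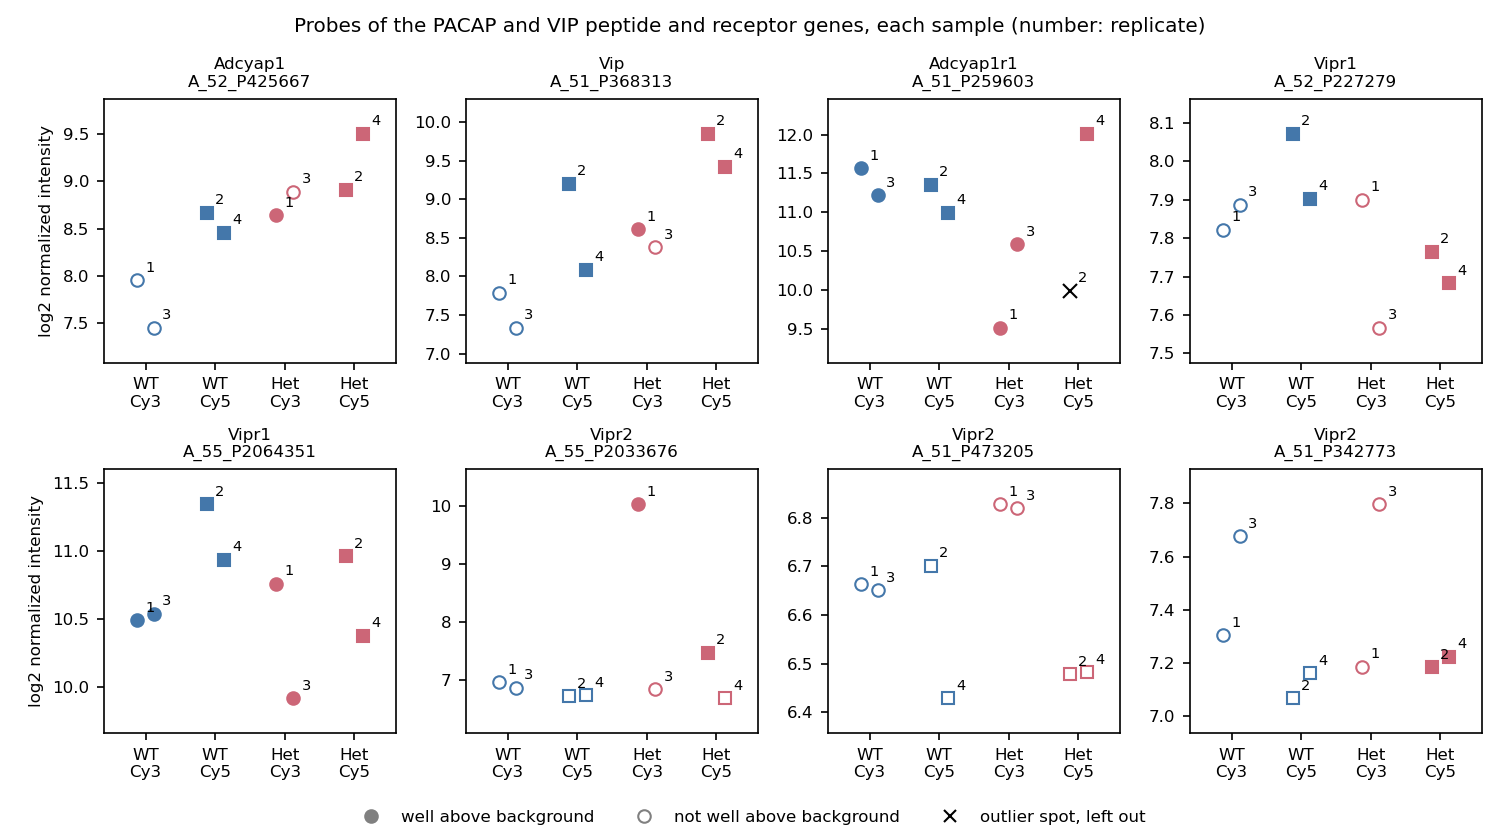
Normalized log2 intensity (vertical axis, a separate range in each panel) of each of the 8 member probes in wildtype (WT) and heterozygous (Het) samples by dye, with replicate numbers, filled symbols for spots well above background, open symbols for the others and a cross for a spot marked as an outlier and left out. In the Adcyap1 and Vip panels the heterozygous Cy5 samples lie above the wildtype Cy5 samples and most Cy3 symbols are open, and in the panel of Vipr2 probe A_55_P2033676 heterozygous replicate 1 stands at 10.04.

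For both peptides the 4 heterozygous values lay above the 4 wildtype values once the dye effect was removed. The lowest heterozygous and highest wildtype values were 8.59 and 8.34 for Adcyap1, and 8.87 and 8.65 for Vip. The set includes the Cy3 values not well above background. The same order held for 808 of the 23852 probes with values in every sample, or 3.39%, and the reverse order, seen in no member, for 5.23%. In the limma fit over 25325 probes, 1 probe (0.00395%) differed between genotypes at a Benjamini-Hochberg adjusted p under 0.05. That probe belonged to Btbd9, named here after its value was seen, and no member probe passed. At an unadjusted p under 0.05 there were 2250 probes, or 8.88%, of which 1028 were higher in heterozygous samples (4.06% of those tested) and 1222 lower (4.83%). The comparison was in view when the members were chosen, and nothing is read from their place against these shares.

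Both differences were larger with the scanner software's own processed signals, which change background removal, dye normalization and scaling together. Scaled to the 75th percentile, these gave log2 differences of 1.51 for Adcyap1 and 1.56 for Vip. In the deposited value table the differences were 0.84 and 1.03. Without the library labelled heterozygous replicate 3 they were 0.77 for Adcyap1 and 1.00 for Vip. Without wildtype replicate 4, the lowest wildtype Vip value in Cy5, the Vip difference was 0.73.

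**Figure D2:**
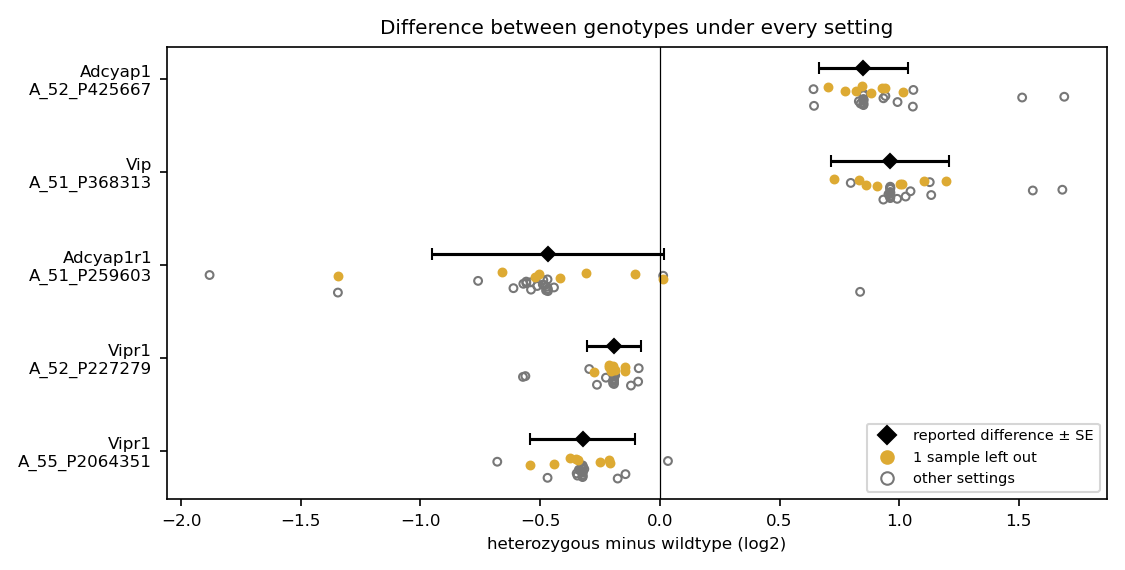
Heterozygous minus wildtype log2 difference (horizontal axis) of the 5 member probes that were tested, with the reported value and its SE (diamond and bar), the values with 1 sample left out (filled circles) and those under all other settings (open circles). The Adcyap1 and Vip values lie right of 0 throughout, and those of Adcyap1r1 spread from -1.88 to 0.84.

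Adcyap1r1, the PACAP-preferring receptor gene, was well above background in all 8 samples. It measured 11.57, 11.35, 11.22 and 11.00 in wildtype replicates 1 to 4. In heterozygous samples it measured 9.51 in replicate 1, 10.58 in replicate 3 and 12.01 in replicate 4, and the spot of replicate 2 was marked as an outlier in its own channel and left out. The heterozygous samples thus lay on both sides of the wildtype samples, below them in Cy3 and above them in the remaining Cy5 sample. If the marked spot is kept, at 9.99, the Cy5 heterozygous samples also lie on both sides of wildtype.

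The log2 difference of Adcyap1r1 was -0.47 (SE 0.484, n = 4 wildtype and 3 heterozygous samples). It was -1.35 in Cy3 and 0.84 in Cy5, where it rests on heterozygous replicate 4 alone. The difference between dyes was 2.15 (SE 0.576), with that lone sample assumed to vary like the others, and did not pass in limma after adjustment over 25242 probes (adjusted p = 0.950). In that fit 1 probe (0.00396%), of the vesicle gene Sv2c, named after its value was seen, passed an adjusted p under 0.05, and 3.17% had an unadjusted p under 0.05. Heterozygous replicates 1 and 2 share the spot that was marked in Cy5, and without heterozygous replicate 1 the Adcyap1r1 difference was 0.01. With the marked spot kept the difference was -0.76, and without heterozygous replicate 4 it was -1.35. With any 1 sample left out the difference ranged from -1.35 to 0.01, so its size rests on single samples.

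For neither peptide did the change of the genotype difference with the dye pass the test. The Cy5 difference minus the Cy3 difference was -0.41 (SE 0.355, adjusted p = 0.950 in limma) for Adcyap1 and 0.06 (SE 0.507, adjusted p = 0.997) for Vip. With SEs of this size a moderate dependence on the dye would not have been detectable. Neither wildtype Cy3 sample was well above background for these probes, so the comparison cannot say whether measured levels differ alike in both dyes.

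Vipr1, which encodes VPAC1, was read by a bright probe and a dim one. The bright probe, A_55_P2064351 (chr9:121581964-121582023), was well above background in all 8 samples. It measured 10.49, 11.34, 10.54 and 10.93 in wildtype replicates 1 to 4, and 10.76, 10.96, 9.92 and 10.38 in heterozygous replicates 1 to 4. The low values were those of heterozygous replicates 3 and 4, which shared an array, and the other heterozygous samples lay among the wildtype ones.

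The log2 difference at the bright Vipr1 probe was -0.32 (SE 0.220), with overlapping groups. Without the array of heterozygous replicates 3 and 4 it was 0.03, and without that of replicates 1 and 2 it was -0.68. The dim probe, A_52_P227279 (chr9:121579630-121579689), was well above background in the 4 Cy5 samples and in none of the Cy3 samples, and ranged from 7.57 to 8.07 over all samples. Its log2 difference was -0.19 (SE 0.112), also with overlapping groups. Both probes thus had a negative difference smaller than those of the peptides.

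Vipr2, which encodes VPAC2, a receptor known for its part in the circadian clock of the suprachiasmatic nucleus, gave little signal. None of its 3 probes was well above background in 4 samples, so none was tested. Probe A_51_P473205 was not well above background in any sample and measured 6.43 to 6.83. Probe A_51_P342773 was well above background in heterozygous replicates 2 and 4 alone, at 7.18 and 7.22, both in Cy5. In that dye wildtype replicates 2 and 4 measured 7.07 and 7.16, and over both dyes the wildtype values ranged from 7.07 to 7.68.

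The Vipr2 probe nearest the transcript's start, A_55_P2033676, behaved differently on 1 array. It measured 6.96, 6.73, 6.87 and 6.75 in wildtype replicates 1 to 4 and 6.85 and 6.69 in heterozygous replicates 3 and 4, none of them well above background. In heterozygous replicates 1 and 2, hybridised to the same spot, it measured 10.04 and 7.48, with a brightness of 1056 and 301, and both were well above background and not marked as outliers. The heterozygous mean was 7.76 over 4 samples, of which 2 were well above background, and the measured wildtype mean was 6.83. With wildtype samples raised to the level of detection, the heterozygous mean was 1.26-fold the wildtype mean. For this value each wildtype sample was set at the lowest level called well above background in that sample, or at its own value where that was higher. The heterozygous samples kept their measured values. Those of replicates 3 and 4 were not well above background, so the fold is not a lower bound. It rests on the array of heterozygous replicates 1 and 2 alone. The other Vipr2 probes did not show the difference there, and whether the spot or the RNA of that array was at its origin was not tested.

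The start regions of the genes were searched for the cAMP response element, the site bound by the transcription factor CREB downstream of cAMP, because the peptide genes are known to respond to cAMP. The window reached from 250 bases before to 50 bases after each transcript start held by a table of RefSeq promoters (GRCm38.p6), and 6 windows matched the 5 genes, 2 of them overlapping ones of Adcyap1. The 7-letter core TGACGTC, on either strand, stood once in the Vip window, 79 bases before the start used for it. It stood once in Adcyap1, at 1 position, 91 and 242 bases before the starts of its windows' transcripts. RefSeq's gene model of Adcyap1 begins further upstream, at base 93198245, so this match lies inside the annotated gene. That of Vip begins at base 5639193, between the match and the start used here. These letters were not found in the windows of Adcyap1r1, Vipr1 and Vipr2. The core is capitalised in the stretches shown, of 125 bases of Vip and 30 of Adcyap1, both on the plus strand.
Vip, chr10:5639068-5639192: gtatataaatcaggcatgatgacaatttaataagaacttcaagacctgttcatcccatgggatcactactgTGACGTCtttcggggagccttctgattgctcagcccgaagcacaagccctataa
Adcyap1, chr17:93198915-93198944: gactaggatgcTGACGTCttttactgatac
Both cores are followed by T, so neither gene held the 8-letter palindrome TGACGTCA in its window. Of 32851 windows of this length, 3.21% held TGACGTC and 1.79% held TGACGTCA, all of which also count for the shorter core. The 5-letter core TGACG alone, held by 20.8% of windows, also occurred on the minus strand of Vipr1, 13 bases before the start. A match is a string of letters and not a measured binding site.

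None of the other genes of the pathway passed the test in either direction. The lists were chosen with earlier results of these data known. Over all 15818 genes with a symbol, 47.7% measured higher in heterozygous samples, and the median difference was -0.01. Of 14 other peptide hormone genes of the class B1 receptors, 6 were tested, 2 of them higher and 4 lower, with a median of -0.08. They ranged from -0.21 (SE 0.199) for Pthlh, which encodes a parathyroid hormone relative, to 0.15 (SE 0.189) for Calca, which encodes calcitonin and CGRP.

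Of 15 other class B1 receptor and RAMP genes, 11 were tested, 4 higher and 7 lower, with a median of -0.09. RAMPs are small membrane proteins that associate with receptors of this class. Ramp3 had the highest difference, 0.95 with a large error (SE 0.680), and Ramp1 the lowest, -0.48 (SE 0.288).

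All 11 genes of prohormone processing and dense-core vesicles were tested, 7 higher and 4 lower, with a median of 0.05. The prohormone convertase genes stood at the ends of the list, with Pcsk1 at 0.33 (SE 0.108) and Pcsk2 at -0.43 (SE 0.235). Of 4 genes of peptide-degrading enzymes 3 were tested, from -0.23 (SE 0.121) for Ece1, endothelin-converting enzyme, to 0.12 (SE 0.215) for Mme, which encodes neprilysin.

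The 29 genes of the cAMP pathway were all tested, 19 higher and 10 lower, with a median of 0.05. The phosphodiesterase gene Pde4d had the highest difference, 0.93 (SE 0.558), and Adcy5, the main adenylyl cyclase of striatal projection neurons, the lowest, -0.44 (SE 0.211). Of 12 genes that cAMP is known to induce, 11 were tested, 3 higher and 8 lower, with a median of -0.12. The nuclear receptor gene Nr4a2 measured 1.17 (SE 0.675) higher and its relative Nr4a1 differed by -0.33 (SE 0.350).

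**Figure D3:**
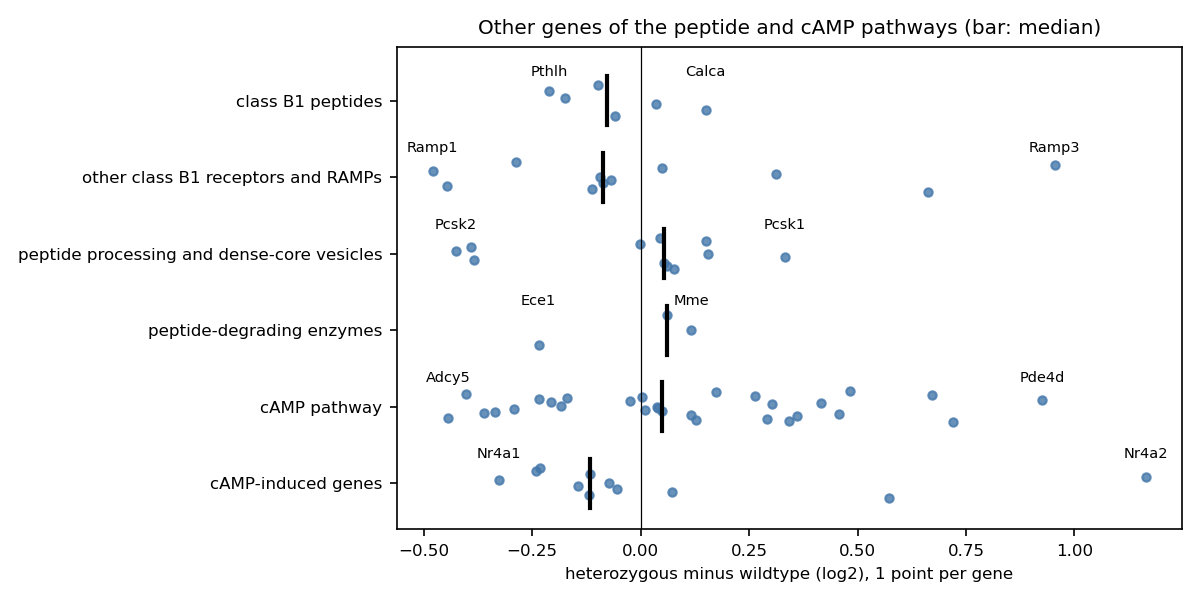
Heterozygous minus wildtype log2 difference (horizontal axis) of each tested gene of 6 lists of the peptide and cAMP pathways, 1 point per gene, with a bar at the list's median and the names of the highest and lowest member. The medians lie between -0.12 and 0.06, and no gene passed the test.

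Markers of cortical neurons were also higher in the heterozygous samples. Of 12 markers of cortical excitatory neurons 11 were tested, and every one of these measured higher in heterozygous samples (median difference 0.92), though none passed the test. Without the library labelled heterozygous replicate 3 the median was 1.04, and without the array of replicates 3 and 4 it was 1.47. They ranged from 0.17 (SE 0.318) for Fezf2, a transcription factor gene, to 2.15 (SE 0.402) for Slc17a7, a vesicular glutamate transporter gene. Their summed linear level with the dye effect removed was 5640 to 10788 in wildtype and 11476 to 30018 in heterozygous samples. The scanner called Slc17a7 and Tbr1 well above background in 2 wildtype samples and in all 4 heterozygous ones, and Neurod1 was too dim to be tested. In bulk tissue more cells of a type and more RNA per cell cannot be told apart, and the part of cortical tissue in the peptide differences was not tested.

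By sample, the cortical list stood at 1.66, 1.26, 0.92 and 0.57 above the wildtype mean (mean log2 over its genes) in heterozygous replicates 1 to 4, and at 0.62 in wildtype replicate 2. On the same scale Vip stood at 1.06, 1.19, 0.83 and 0.76 in heterozygous replicates 1 to 4 and at 0.54 in wildtype replicate 2, its highest wildtype sample. Adcyap1 stood at 0.83, 0.45, 1.08 and 1.04 in heterozygous replicates 1 to 4. For both peptides the value of heterozygous replicate 3 was not well above background, so its rank beside the cortical list has no firm meaning. Wildtype replicate 2 was also the highest wildtype sample of Adcyap1, at 0.21.

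Of 9 further markers of VIP interneurons 7 were tested, 6 of them higher, with a median of 0.19. Cck, which encodes cholecystokinin and is abundant in cortical neurons of several classes, had the highest difference at 1.61 (SE 0.434). Prox1, a transcription factor gene, had the lowest at -0.13 (SE 0.327). The list's summed level, 10881 to 24446 in wildtype and 21482 to 61800 in heterozygous samples, was dominated by Cck. As a mean log2 value over its genes, heterozygous replicate 1, which had the highest sum, stood 0.06 above the wildtype mean, within the wildtype range, and the other heterozygous samples 0.35 to 0.76 above it. Leaving out heterozygous replicate 4 gave a median of 0.09, and leaving out the array of replicates 3 and 4 gave 0.08. Calb2 and Adarb2 were too dim to be tested, and Htr3a, a serotonin receptor gene of these interneurons, was 0.19 (SE 0.129) higher. Of 9 markers of other interneurons, all tested, 4 were higher and 5 lower, with a median of -0.06. They ranged from -0.24 (SE 0.166) for the GABA-synthesis gene Gad2 to 1.58 (SE 0.647) for Pvalb. Striatal projection neurons are GABAergic too, so Gad1 and Gad2 on this list do not mark interneurons alone. With the library labelled heterozygous replicate 3 left out, the median of these 9 markers became 0.21. The summed level of the 8 with values in every sample was 70909 to 97100 in wildtype and 85397 to 103224 in heterozygous samples.

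Markers of neighbouring regions were highest in the library labelled heterozygous replicate 3. Of 5 thalamic markers tested 4 were higher, with a median of 0.55, from -0.16 (SE 0.101) for Tcf7l2 to 1.14 (SE 0.231) for Slc17a6. Their summed level was 2749 to 3399 in wildtype and 3086 to 8740 in heterozygous samples. Of 7 hypothalamic and suprachiasmatic markers tested, among which VIP-making cells are known, 4 were higher, with a median of 0.08, from -0.54 (SE 0.253) for Trh to 1.59 with a large error (SE 1.01) for the orexin gene Hcrt. Their summed level was 3313 to 4957 in wildtype and 2575 to 15885 in heterozygous samples. Without that library the thalamic median was 0.11 and the hypothalamic median -0.30. Without the array of heterozygous replicates 3 and 4 these list medians were -0.08 and -0.31. The part of tissue from these regions in the peptide differences was not tested.

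The 8 choroid plexus and meningeal markers had a median of 0.61, 7 of them higher, from -0.18 (SE 0.208) for Clic6 to 1.42 (SE 0.433) for Igfbp2. Without the library labelled heterozygous replicate 3, which stood highest, the median was 0.10, and without its array it was 0.01. Their summed level was 60695 to 72944 in wildtype and 66966 to 202355 in heterozygous samples. All 14 markers of striatal projection neurons measured lower in heterozygous samples (median difference -0.43), none of them past the threshold, from -1.10 (SE 0.372) for Pde10a to -0.22 (SE 0.326) for Bcl11b. Without the library labelled heterozygous replicate 3 the median was -0.16, and without replicate 4 it was -0.67. The summed level of the 10 with values in every sample was 370424 to 437481 in wildtype and 186509 to 480668 in heterozygous samples. As a mean log2 value against the wildtype mean, these 10 stood at 0.17, -0.69, -1.13 and -0.06 in heterozygous replicates 1 to 4. Wildtype samples stood at -0.13 to 0.17, so the lower level was that of heterozygous replicates 2 and 3.

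Astrocytes, which make the PACAP receptor in the forebrain, had markers with a median of -0.02 over 8 genes, 3 higher and 5 lower, from -0.14 (SE 0.174) for Slc1a2 to 0.37 (SE 0.261) for S100b. The summed level of the 7 with values in every sample was 29714 to 43974 in wildtype and 36147 to 66281 in heterozygous samples. Microglia and T cells, the latter known to carry VPAC1, had markers with a median of -0.13 over 7 genes, 2 higher and 5 lower, from -0.48 (SE 0.229) for Cd3e to 0.30 (SE 0.121) for Ptprc. Their summed level was 27212 to 40925 in wildtype and 29762 to 32807 in heterozygous samples. Endothelial and smooth muscle markers had a median of 0.002 over 6 genes, from -0.42 (SE 0.227) for Kdr to 0.38 (SE 0.200) for Acta2. Oligodendrocyte markers had a median of 0.05 over 5 genes, from -0.57 (SE 0.154) for Mbp to 0.38 (SE 0.281) for Mag.

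**Figure D4:**
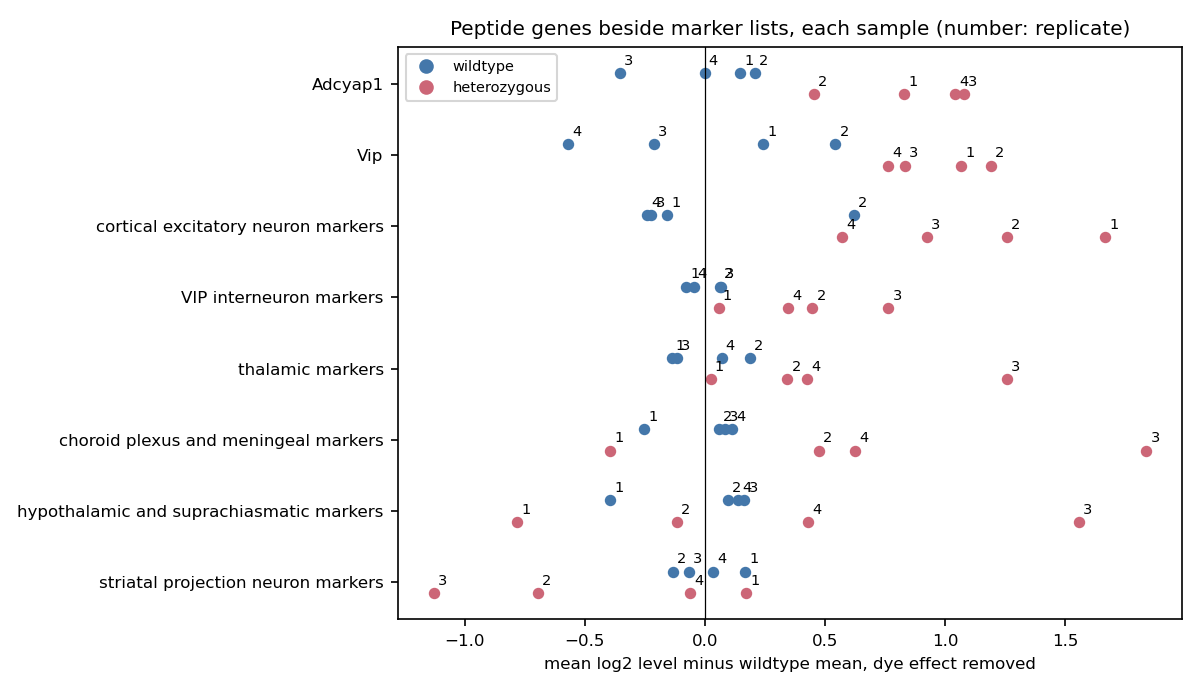
Level of Adcyap1, Vip and 6 marker lists in each sample (points with replicate numbers), as the mean log2 value minus the wildtype mean with the dye effect removed (horizontal axis). Heterozygous samples of Adcyap1 and Vip lie right of all wildtype samples, while in the cortical list wildtype replicate 2, at 0.62, lies beyond heterozygous replicate 4, at 0.57.

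The genes whose levels ran most like each peptide were sought over 14722 genes with values in all 8 samples after removal of the dye effect. The 5 most like Adcyap1 were Nrg3, Efemp1, Mex3d, Rasl11a and Cdk14, with Pearson correlations of 0.96 to 0.98. The 5 most like Vip were Mapk10, 1700003F12Rik, Klhl14, Hipk2 and Cxxc5, with correlations of 0.96 to 0.97. All of these genes were measured on the same 8 samples, share their genotype split and were picked from many, so the values only describe likeness. Of the other 14719 genes, 62 had a correlation above 0.9 with Adcyap1 and 54 with Vip. The peptides themselves correlated at 0.76 with each other, and at 0.14 once the genotype means were removed within each dye. Each peptide was well above background in 5 of the 8 samples, and Nrg3, Rasl11a and Klhl14 in 4. All of these correlations thus include Cy3 values of the peptides whose order has no firm meaning.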

How the data were processed

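Spot intensities (mean brightness and local background) were extracted by the authors with Agilent Feature Extraction 10.7.3.1, per the file headers; processed intensities beside them had been background-subtracted, detrended and dye-normalized by that software. In the deposited value table each entry is a ratio of a spot's background-subtracted median intensity to the median of its own column, found from the values within a relative tolerance of 0.0001; it is not log-transformed. The 2 samples of an array had byte-identical files, of which the Cy3 or the Cy5 columns were used.

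Background was corrected by normexp with an offset of 50, followed by loess within arrays, Aquantile between them and a split into log2 values per channel. The package limma 3.58.1 was used under R 4.3.3 with statmod 1.5.0. Control and outlier-marked spots were left out (1377 and 230 to 978 per sample); none was saturated. Probes well above background in at least 4 of 8 samples (25338) were fitted with terms for genotype and dye and the array as a random block (consensus correlation -0.012), with Benjamini-Hochberg adjustment over the 25325 with an estimate; the dye interaction was fitted likewise. Dye-removed values subtract the fitted dye effect. Lists and likeness used each gene's brightest probe, named through RefSeq. Named genes were the members, Brd2, the 5 genes most like each peptide and the highest and lowest of each list; others are named as chosen after their values were seen, or as examples. The members and lists were chosen with earlier results of these data known. The fits were tested on simulated data. Alternatives covered background correction, normalization, filter, probe choice, dye, blocks, variance model, threshold and left-out samples. Sequences are from the array files and RefSeq (GRCm38.p6); figures used matplotlib 3.10.9.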

Additional observations from a re-analysis of the deposited data

Results flagged for a closer look

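Among 15 sets of 4 values (each member probe in each genotype, dye effect removed), 1 held a sample far from the others. At Vipr2 probe A_51_P473205, wildtype replicate 2 stood at 6.81 while the other wildtype samples stood close together. That probe was not well above background in any sample, and chance alone marks about 1 in 20 such sets.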

How the results depend on the processing

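The log2 differences of Adcyap1 and Vip stayed positive under all 28 alternatives that gave a value, from 0.64 to 1.69 and from 0.73 to 1.68. Requiring all 8 samples well above background removed both genes. Adcyap1r1 was positive in 3 of 29 alternatives and ranged from -1.88 to 0.84; the bright Vipr1 probe was positive in 1 of 29. Over 29 alternatives the median difference of the cortical markers was 0.77 to 1.70, that of the VIP interneuron markers 0.08 to 0.40 and that of the striatal markers -0.67 to -0.16. The single probe that passed between genotypes was lost (0 probes) with loess alone, the value table, no filter, the brightest probe per gene, Cy3 samples alone, and without either heterozygous array, the last chosen after seeing the data. It was 3 probes with quantile-scaled processed signals and 2 at an adjusted p under 0.10. Leaving out 1 sample gave 0 to 1 probes. The replicate block, which uses replicate numbers that correlated at 0.10 (1 and 3) and 0.01 (2 and 4) and so do not pair the samples, gave 0 probes. The interaction gave 0 probes with processed signals and with trended robust variances, and 0 to 1524 with 1 sample left out. These 1524 were without heterozygous replicate 1, and 158 passed without replicate 3; each leaves 1 heterozygous Cy3 sample, assumed to vary like the others. Dim Cy3 signal limits both peptides.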
